A study of Mus musculus with 1829 samples.

Results

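The cells described here are CD4+ T cells of NOD/ShiLtJ mice, sorted singly with an IAg7 tetramer that carries residues 13-21 of the insulin B chain, and taken from the islets or from lymph node of the same animals. Of 402 such cells at 7 and 13 weeks of age, 324 came from 8 animals with both tissues on 1 chip. A well was kept where at least 20 of its 96 assays were detected, and an animal where both tissues had at least 5 kept wells. That left 143 cells of the 1829 in the series: 73 from islets and 70 from lymph node of 4 animals, 3 of them 13 weeks old (M2, M3 and M4) and 1 of them 7 weeks old (also named M2). All of these mice carry the same strain background, and no treatment or added allele is given in the labels. The labels do not say which lymph node was taken.

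The NOD strain develops autoimmune diabetes spontaneously, and IAg7 is its class II molecule, which presents peptides to CD4+ T cells. Insulin is made by the beta cells of the islets, so T cells of the islets lie beside the source of the antigen, whereas T cells of a lymph node meet it on migrating antigen-presenting cells. Antigen contact is known to raise activation and inhibitory receptors on T cells, and T cells that recirculate through lymph nodes are known for the homing receptor CCR7 and the IL-7 receptor.

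Each value is log2Ex, the number of PCR cycles by which a transcript crossed its threshold before cycle 24, and 0 where it was not detected. It was averaged over the wells of 1 tissue of 1 animal, so a difference between tissues holds both how many wells detected the gene and how much they held, and is not a fold change. Levels of different genes are not compared, because each assay amplifies on its own scale.

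Among the kept wells, those of islets detected more assays in each of the 4 animals. The mean number per kept well was 48.4 in islets and 32.5 in lymph node of 13-week M2, 42.3 and 30.5 in 13-week M3, 48.4 and 39 in 13-week M4, and 41.7 and 33.6 in 7-week M2. The lowest islet mean thus lay above the highest lymph node mean. Over animals the means were 45.2 ± 3.69 and 33.9 ± 3.64 (SD, n = 4), a difference of 11.3 ± 3.44 (SD), higher in 4 of 4 animals. Wells were kept on this same count, so these values are a description with no test. Over all wells of the 7 animals with at least 5 wells in each tissue, the means were 25.7 ± 17.5 in islets and 22.8 ± 11.7 in lymph node. The difference of 2.93 ± 12.6 was above 0 in 5 of 7 animals (exact permutation test of paired differences, two-sided, p = 0.547). In 13-week M2 the medians of all wells ran the other way, 10 in islets and 20.5 in lymph node, as in 7-week M7, 9 and 30.5. Islet units held 8, 24, 23 and 18 wells and lymph node units 13, 18, 23 and 16, in the order of animals above.

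**Figure D1:**
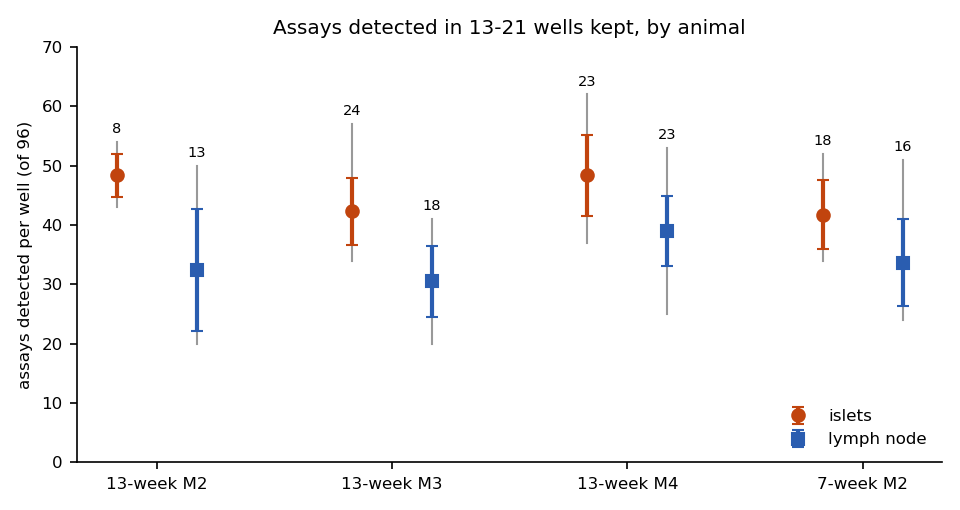
Assays detected per kept well, of 96, for islets (circles) and lymph node (squares) in each animal. Points are means over wells, thick bars ± 1 SD between wells, thin lines the lowest and highest well, and the number above each is the number of wells. In each animal the islet mean is the higher, by 8.10 to 15.9 assays.

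Most kept wells carried Cd4 or Cd3e, 139 of 143 (97.2%). Cd4, which encodes the co-receptor of helper T cells, was present in 97.3% of the kept wells from islets, 71 of 73, with a 95% interval of 90.5 to 99.7% (exact, Clopper-Pearson). For lymph node it was 65 of 70, or 92.9% (84.1 to 97.6%). Cd3e, part of the complex that signals for the T cell receptor, was present in 60 (82.2%) and 59 (84.3%). Of the 324 wells of the 8 animals, 134 detected fewer than 20 assays, and of these 4 had Cd4 (2.99%) and 5 had Cd3e (3.73%). They include every well of 7-week M10 and M11 and every islet well of 7-week M7. Those animals gave none of the 143 cells, so rates in the 134 wells do not describe the 4 animals alone. Cd8a, the co-receptor of the other main T cell class, was found in 3 islet wells (4.11%) and in 0 of 70 lymph node wells, which allows up to 4.29%. Of the surface molecules that mark antigen-presenting cells, Cd86 was found in 23 islet and 13 lymph node wells, Cd80 in 13 and 6, and Cd40 in 11 and 3. The islet unit of 13-week M2 stood apart from the other islet units in several markers. Of its 8 wells, 8 had Cd4, but 4 had Cd3e, 3 had Cd28 and 4 had Zap70, while 5 had Cd86 and 4 had Cd80. Icam1 was in 6 of the 8, and in 18 of 23 islet wells of 13-week M4. Its Zeb2 was found in 5 of 8 wells. The part of these markers in the results below was not tested, and the count of genes that rose is given below without this animal too. Intervals cover counting error alone, since wells of 1 animal are not independent.

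The filter on wells removed some animals altogether. Over the 7 animals with at least 5 wells in each tissue, the share of wells with 20 or more assays averaged 47% ± 49.7 for islets and 55.1% ± 40.1 for lymph node (SD, n = 7 animals), a difference of -8.12 percentage points (exact permutation test, two-sided, p = 0.75). In 7-week M7 it was 0 of 21 islet wells (which allows up to 14.3%) and 21 of 24 lymph node wells (87.5%). In 7-week M10 and M11 it was 0 in both tissues. At 13 weeks it was 33.3%, 100% and 95.8% in the islets of M2, M3 and M4, and 54.2%, 81.8% and 95.8% in their lymph nodes. Near the limit, 1 islet and 6 lymph node wells of the 324 had 15 to 19 assays, and 0 islet and 12 lymph node wells had 20 to 24, with Cd4 in 8 of these 12. Tissue values below therefore describe 4 animals, of which 1 is 7 weeks old.

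Of 78 genes tested, 20 rose in islet 13-21 cells against lymph node (25.6% of genes tested) and 0 fell (0%; limma with the animal as a block, Benjamini-Hochberg adjusted p under 0.05). At an unadjusted p under 0.05 there were 31 genes, 30 of them higher in islets. Those described here fall into a few groups: receptors and ligands that restrain or co-stimulate T cells (Cd274, Icos, Pdcd1, Ctla4), Th1 and effector genes (Cxcr3, Tnf, Ifng, Stat4), genes of TNF, NF-kB and cytokine signalling (Tnfrsf1b, Nfkb1, Tnfaip3, Stat3, Jak2), and others (Irf2, Zeb2, Nr4a1 and the reference gene Hprt). In 18 of the 20 the islet value was the higher in 4 of 4 animals. In 10 of them every islet value lay above every lymph node value, as it did in 16 of the 78 genes (20.5%). The count of genes that rose was 0 without 13-week M4, 11 without 7-week M2, 12 without 13-week M2 and 23, with 1 that fell, without 13-week M3. Over the 78 genes the median tissue difference came to 1.51 and 72 lay above 0, beside the higher number of assays detected in islet wells. What the number of assays contributes to single genes was not tested here beyond the centred and paired values given below. Centring each unit on its mean over the genes tested takes the same 1.61 from the difference of every gene. The 20 genes all differed by more than this, so they stay above 0 by construction, beside 38 of the 78 genes. After centring 0 passed as higher and 1, Ccr7, fell.

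Cd274 encodes PD-L1, the ligand of the inhibitory receptor PD-1, and had the largest difference. Its mean log2Ex was 9.50 in islets and 2.63 in lymph node of 13-week M2, 6.98 and 3.38 in 13-week M3, 7.72 and 3.02 in 13-week M4, and 3.94 and 1.59 in 7-week M2. Every islet value lay above every lymph node value, and the 7-week animal was the lowest in both tissues. The means were 7.04 ± 2.32 and 2.65 ± 0.77 (SD, n = 4), a difference of 4.38 (SE 0.90, limma adjusted p = 0.00744). Without 13-week M2, whose islet unit was high in Cd86, it was 3.55 (SE 0.67, adjusted p = 0.0276). Without 13-week M3 or 7-week M2 it was 4.64 and 5.06 (adjusted p = 0.000875 and 0.00129). It did not pass without 13-week M4 (4.27, SE 1.19, adjusted p = 0.131) or after centring (2.77, SE 0.82, adjusted p = 0.102).

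Icos, a co-stimulatory receptor that activated and follicular helper T cells carry, stood at 5.36 and 1.85 in 13-week M2, 7.89 and 3.37 in 13-week M3, 6.97 and 3.94 in 13-week M4, and 7.38 and 2.36 in 7-week M2, islets first. The tissues did not overlap. The difference was 4.02 (SE 0.82, adjusted p = 0.00744), and 56 wells from islets and 25 from lymph node detected Icos. Of the 134 wells with fewer than 20 assays, 12.7% detected it.

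Pdcd1 encodes PD-1 itself. Its mean log2Ex was 2.72 in islets and 1.89 in lymph node of 13-week M2, 7.66 and 1.38 in 13-week M3, 4.38 and 2.73 in 13-week M4, and 8.93 and 2.06 in 7-week M2. The lymph node values were close together, between 1.38 and 2.73, whereas those of islets ran from a value inside that range to 8.93. The difference was 3.91 (SE 1.05, adjusted p = 0.0168). Ctla4, an inhibitory receptor that competes for the ligands of CD28, had islet values from 4.27 to 7.71 and lymph node values from 1.27 to 2.63, with no overlap and a difference of 3.65 (SE 0.92, adjusted p = 0.0133). The inhibitory receptor list thus had 2 of 2 members higher (100%, beside 25.6% of all genes). Its median was 3.78 beside 1.51 for all genes, or 2.17 beside -0.10 after centring. In wells paired on the number of assays, described further on, 1 of the 2 was above 0 and the median was -0.23 beside 0.21.

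The other surface molecules listed with Cd274 did not pass. Icam1 differed by 2.48 (SE 1.19, adjusted p = 0.127), Cd86 by 1.86 (SE 1.02, adjusted p = 0.171), Cd40 by 1.28 and Cd80 by 1.11. In this list of 5 genes 1 rose (20%, near the 25.6% of all genes), 4 did not pass, and the median was 1.86 beside 1.51.

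**Figure D2:**
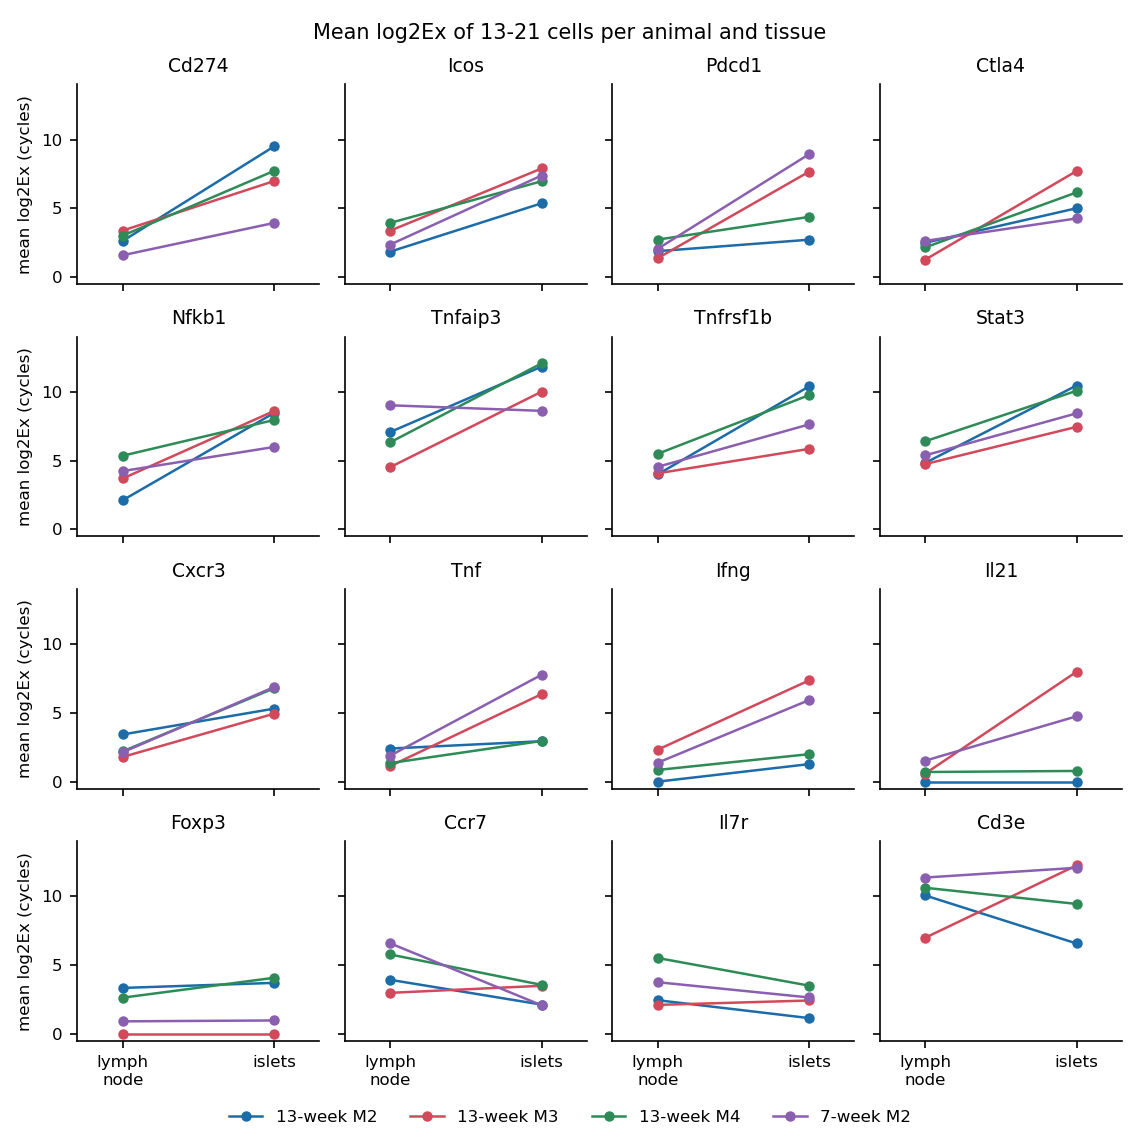
Mean log2Ex, in cycles, of 16 genes in 13-21 cells of lymph node and islets. Each line joins the tissues of 1 of the 4 animals. Lines of Cd274, Icos and Stat3 rise in every animal, those of Ifng and Il21 rise most in 13-week M3 and 7-week M2, and Ccr7 declines in 3 of the 4.

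Of 9 tested Th1 and effector genes, 6 rose (66.7%, beside 25.6% of all genes), 0 fell and 3 did not pass. The median difference was 2.59 beside 1.51 for all genes, and 0.69 beside 0.21 in paired wells. Cxcr3, the receptor that draws Th1 cells to interferon-induced chemokines, was 5.31, 4.94, 6.79 and 6.88 in the islets of 13-week M2, M3, M4 and 7-week M2. In lymph node it was 3.43, 1.80, 2.21 and 2.14. The ranges were apart, and the difference was 3.58 (SE 0.85, adjusted p = 0.00907).

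Ifng, the cytokine that defines Th1 cells, varied more between animals than between tissues of some of them. In islets it was detected in 1 of 8 wells of 13-week M2, 18 of 24 of 13-week M3, 5 of 23 of 13-week M4 and 12 of 18 of 7-week M2. In lymph node the counts were 0 of 13 (up to 23.1%), 5 of 18, 2 of 23 and 2 of 16. The islet share was the higher in 4 of 4 animals, but the islets of 13-week M2 and M4 lay within or near the lymph node range. Mean log2Ex was 1.28, 7.36, 2.0 and 5.93 in islets and 0, 2.32, 0.85 and 1.38 in lymph node, a difference of 3.0 (SE 0.92, adjusted p = 0.030).

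Tnf, an inflammatory cytokine, split the animals in the same way. Its islet values were 2.94 and 2.96 in 13-week M2 and M4, and 6.36 and 7.77 in 13-week M3 and 7-week M2, against 1.13 to 2.41 in lymph node. It rose by 3.31 (SE 0.99, adjusted p = 0.027). Stat4, which relays IL-12 signals, rose by 2.58 (SE 0.85, adjusted p = 0.0401). Tbx21, the transcription factor of the Th1 state, had islet values of 1.87 to 2.81 and lymph node values of 0 to 1.47. These did not overlap, yet its difference of 1.53 did not pass (SE 0.82, adjusted p = 0.166). Neither did Il-12rb (1.70, SE 0.87) or Il18r1 (0.70, SE 0.93).

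Several genes linked to TNF and NF-kB passed, and others did not. Tnfrsf1b, which encodes TNF receptor 2, was 10.4, 5.85, 9.76 and 7.63 in islets of 13-week M2, M3, M4 and 7-week M2. In lymph node it was 4.0, 4.07, 5.49 and 4.55, so that 13-week M3 was the lowest in islets and still above every lymph node value. The difference was 3.88 (SE 0.91, adjusted p = 0.00907). Nfkb1, a subunit of NF-kB, rose by 3.90 (SE 0.92, adjusted p = 0.00907), from 2.12 to 5.35 in lymph node to 5.99 to 8.60 in islets. Tnfaip3 encodes A20, an inhibitor that NF-kB induces. It was 11.8 and 7.08 in 13-week M2, 10.01 and 4.52 in 13-week M3, and 12.1 and 6.33 in 13-week M4, islets first. In 7-week M2 it went the other way, 8.61 in islets and 9.02 in lymph node. It rose by 3.89 over the 4 animals (SE 1.02, adjusted p = 0.0156). The receptor of the same ligand encoded by Tnfrsf1a differed by 0.14 (SE 0.87, adjusted p = 0.898). Traf2, an adaptor of TNF receptors, differed by 1.42 (SE 1.01, adjusted p = 0.288) and was higher in islets in 2 of 4 animals. Of the list of 3 TNF receptor and survival genes 1 rose (33.3%, beside 25.6% of all genes). The median of this list was 0.68 beside 1.51 for all genes.

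Of 15 tested genes in a list of signalling molecules, drawn up after the assay names had been seen, 5 rose (33.3%, near the 25.6% of all genes), 0 fell and 10 did not pass. The median was 2.03 beside 1.51 for all genes, and -0.12 beside 0.21 in paired wells. Stat3, which relays IL-6 and IL-21 signals, was 10.5, 7.45, 10.1 and 8.44 in islets and 4.83, 4.75, 6.4 and 5.38 in lymph node, in the order of animals used above. The tissues were apart, and the difference was 3.76 (SE 0.85, adjusted p = 0.00907). Jak2, a kinase of cytokine receptors, rose by 3.13 (SE 0.88, adjusted p = 0.0204), from 3.35 to 5.63 up to 6.41 to 8.31. Those that did not pass include Stat5 (2.28, adjusted p = 0.0788), Zap70, the kinase of the T cell receptor (2.03, adjusted p = 0.101), Socs3, a feedback inhibitor of STAT signals (1.88, adjusted p = 0.101), and Jak1 (0.98, adjusted p = 0.376).

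Further genes that rose were Irf2 at 3.0 (SE 0.95, adjusted p = 0.0353), Hprt at 2.96 (SE 0.87, adjusted p = 0.027), Zeb2 at 2.93 (SE 1.0, adjusted p = 0.0415) and Nr4a1 at 2.52 (SE 0.84, adjusted p = 0.0401). Zeb2 is a transcription factor of terminal effector cells, and its islet value was highest in 13-week M2, at 7.42, while in 13-week M3 the tissues were level at 2.33 and 2.34. Without 13-week M2 its difference was 1.71 (SE 0.74, adjusted p = 0.160), and without 7-week M2 it was 2.92 (SE 1.18, adjusted p = 0.0725). Nr4a1 is induced by T cell receptor signals. It was detected in 2 of 8, 10 of 24, 14 of 23 and 11 of 18 islet wells, and in 2 of 13, 0 of 18, 6 of 23 and 6 of 16 lymph node wells. Of 5 activation genes it alone rose (20%, near the 25.6% of all genes), with a median of 1.28 beside 1.51 for all genes. Cd44, an adhesion receptor of antigen-experienced T cells, was not among those that passed, although the ranges of its means were apart: 0.85 to 2.84 in islets and 0.14 to 0.56 in lymph node (1.28, SE 0.83, adjusted p = 0.259). Hprt serves every cell and is used as a reference. Gapdh, the other reference on the panel, was detected in all 143 wells and differed by 0.75 (SE 0.80, adjusted p = 0.498).

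Of 4 follicular helper genes, Icos and Pdcd1 rose (50%, beside 25.6% of all genes) and the others did not pass. The median difference was 3.29 beside 1.51 for all genes. In paired wells the median was 0.11 beside 0.21, and 2 of the 4 genes were above 0. Il21, the cytokine of follicular helper cells, was found in 20 of 24 islet wells of 13-week M3 and 9 of 18 of 7-week M2. It was found in 2 of 23 in 13-week M4 and 0 of 8 in 13-week M2 (up to 37.5%). In lymph node it was found in 6 of 70 wells over the 4 animals. The difference of 2.68 carried an SE of 1.11 (adjusted p = 0.0885), and the islet values ran from 0 to 7.99. Bcl6, the transcription factor of follicular helper cells, was 1.22, 4.28, 3.46 and 5.21 in islets and 0.55, 2.52, 2.78 and 1.49 in lymph node. It was higher in islets in each animal, with overlapping ranges (1.71, SE 0.86, adjusted p = 0.139).

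Of 4 regulatory T cell genes 1 rose (25%, near the 25.6% of all genes), Ctla4, which activated T cells carry too. The median was 1.15 beside 1.51 for all genes, and -0.74 beside 0.21 in paired wells. Foxp3, the factor that defines regulatory T cells, was detected in 3 of 8 islet and 5 of 13 lymph node wells of 13-week M2, and in 10 of 23 and 7 of 23 of 13-week M4. In 7-week M2 it was 2 of 18 and 2 of 16, and in 13-week M3 it was 0 of 24 (up to 12.5%) and 0 of 18 (up to 16.7%). Mean log2Ex differed between tissues by 0.47 (SE 0.81, adjusted p = 0.664). Il2ra, the alpha chain of the IL-2 receptor, stood at 4.34 and 3.86 in 13-week M2, 4.46 and 3.31 in 13-week M4, 3.34 and 1.77 in 7-week M2, and 0.95 and 0.36 in 13-week M3, islets first. In 7-week M2 it was found in 6 of 18 islet wells, beside 2 with Foxp3. Il10, a cytokine that dampens inflammation, was detected in 12 islet and 3 lymph node wells, was higher in islets in 4 of 4 animals and differed by 1.35 (SE 0.82, adjusted p = 0.226). The animals with many Foxp3 wells, 13-week M2 and M4, were the ones with few Ifng and Il21 wells in islets. With 4 animals no relation between these genes was tested.

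The same genes were also counted together in single wells. Of the 15 islet wells with Foxp3, 12 had Il2ra and 2 had Ifng, beside 15.5% and 58.6% of those without Foxp3. Of the islet wells with Ifng and no Foxp3, 18 were of 13-week M3, which had no Foxp3 well. Of the 14 lymph node wells with Foxp3, 14 had Il2ra and 1 had Ifng, beside 5.36% and 14.3% of those without it. Of the 36 islet wells with Ifng, 25 had Il21 (69.4%), as did 16.2% of the 37 without it. These shares pool animals that differ in both genes. In 13-week M3 Il21 was in 17 of 18 islet wells with Ifng and 3 of 6 without it. In 7-week M2 it was in 7 of 12 and 2 of 6, and in 13-week M4 in 1 of 5 and 1 of 18. Tnf was found in 30 of the 36 and in 40.5% of the rest. In 7-week M2 the islet wells with Ifng also detected more assays, 44.5 on average against 36.2 in those without it, whereas in 13-week M3 the averages were 42.8 and 40.8. Of the 56 islet wells with Icos, 44 had Pdcd1 (78.6%), beside 23.5% of those without Icos. These are counts of wells that share animals, given as a description.

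The 2 genes of recirculating T cells had differences below 0, and 0 passed. Ccr7, the receptor for entry into lymph nodes, was 3.93, 2.99, 5.78 and 6.59 in lymph node and 2.13, 3.50, 3.57 and 2.09 in islets of 13-week M2, M3, M4 and 7-week M2. Only in 13-week M3 was the islet value the higher, and the ranges overlapped. The difference was -2.0 (SE 0.92, adjusted p = 0.113). Without 13-week M3 its adjusted p was 0.0296, and centred on the unit means it was -3.61 (SE 0.87, adjusted p = 0.0462). Without 7-week M2 it was -1.17 (adjusted p = 0.491), and in wells paired on the number of assays -0.12 (adjusted p = 0.964). Il7r, the receptor of the survival cytokine IL-7, was 2.45, 2.11, 5.52 and 3.76 in lymph node and 1.15, 2.43, 3.51 and 2.65 in islets, a difference of -1.02 (SE 0.82, adjusted p = 0.349). In paired wells Il7r was at 1.18. The median of this list was -1.51 beside 1.51 for all genes, and 0.53 beside 0.21 in paired wells. In lymph node 28 of the 40 wells with Ccr7 had Il7r, and 7 had Icos. Of the 30 wells without Ccr7, 13.3% had Il7r and 60% had Icos. In islets 22 of the 28 wells with Ccr7 had Icos (78.6%), near the 75.6% of those without it.

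Cxcl10, an interferon-induced chemokine, was lower in islets in 4 of 4 animals, at 3.43, 4.67, 6.13 and 5.91 against 6.83, 4.83, 7.18 and 6.01, the 1 gene of 78 with that pattern. The difference did not pass (-1.18, SE 0.87, adjusted p = 0.307). This assay was also detected in 70.9% of the 134 wells with fewer than 20 assays, where Cd4 was in 2.99%, and whether its values come from the sorted cells was not tested. Ccr4, a receptor of Th2 and skin-homing cells, was at or below 1.82 in every unit and differed by -0.54 (SE 0.81).

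The other lists are given by their counts, beside 25.6% and a median of 1.51 for all genes. Of 14 tested interferon-stimulated genes (2 of them, Oas1b and Ly6e, added after the assay names had been seen), 1 rose (7.14%) and 13 did not pass, and the median was 1.02. Ifit1 was detected in 14 islet wells, with at least 1 in each animal, and in 1 lymph node well (1.49, SE 0.81, adjusted p = 0.171). Rsad2 was detected in 9 islet wells, of 13-week M2 and M4, and in 0 lymph node wells. Ifit3, Isg15 and Ifi44 were detected in 87.3%, 82.1% and 78.4% of the wells with few assays, and differed by 0.75, 0.16 and 0.38. Of 8 tested chemokine receptors 2 rose (25%), Cxcr3 among them, and 6 did not pass, with a median of 0.94. Of 8 tested cytokine receptors, a list also drawn up after the assay names had been seen, 0 passed, with a median of 0.82 and values from -1.02 for Il7r to 1.26 for Tgfbr2. Of 4 tested Th2 genes 0 passed, with a median of 0.17. The Th17 list came down to Ccr6, at -0.43 (SE 0.87). That assay was also detected in 85.8% of the wells with few assays. So were Ccr2 of the chemokine receptor list (87.3%) and Il25 of the Th2 list (70.1%). Whether values of these assays come from the sorted cells was not tested. Il2, Il4, Il5 and Il6 were among 8 assays found in 0 of the 143 wells, which allows up to 2.10% of wells each, and Il17a was found in 1 islet well.

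The difference in log2Ex was next split into the share of wells that detected a gene and the level in those wells. By share, 0 of 78 genes passed (0%; limma, 26 at an unadjusted p under 0.05, all higher in islets), with the smallest adjusted p at 0.0547. The genes there were Cd274, with a share of 73.4% ± 19.6 for islets and 30.8% ± 8.69 for lymph node (SD over 4 animals, a difference of 42.6 percentage points, SE 6.45), Cxcr3 (38.7 points, SE 6.92), Icos (38.3 points, SE 6.06) and Stat3 (32.7 points, SE 5.49). Each was higher in 4 of 4 animals. Fitted without the animal as a block, 12 genes passed by share. With wells that detected Cd4 or Cd3e alone, 3 passed, as they did with wells of 25 or more assays. The median difference in share over all genes was 14.3 points.

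By level in positive wells, 0 of 52 genes passed (0%; limma, 25 at an unadjusted p under 0.05, 24 of them higher in islets), with the smallest adjusted p at 0.0558. The genes there were Cd3e, Socs3 and Zap70. Cd3e stood at 13.1 ± 0.38 in positive islet wells and 11.5 ± 0.51 in positive lymph node wells (SD, n = 4), a difference of 1.55 cycles (SE 0.30), while its share differed by -7.46 points (SE 13.2). Socs3 differed in level by 1.63 (SE 0.35) and Zap70 by 1.44 (SE 0.32). Tnfrsf1b followed at 1.73 (SE 0.45, adjusted p = 0.0658). Several genes shared this adjusted p. Among them were Cd4 at 1.51 (SE 0.40) and Cd28, the main co-stimulatory receptor, at 1.03 (SE 0.30). So were Ctla4 at 1.40 (SE 0.41) and Stat3 at 0.96 (SE 0.30), so these are not T cell receptor genes alone. Each gene named so far in this paragraph was higher in 4 of 4 animals. Cxcl10 was lower in 4 of 4, with a difference of -0.86 (SE 0.27, adjusted p = 0.0658). The median over all 52 genes was 0.87 cycles, and Gapdh, present in every well, differed by 0.75 (SE 0.28, adjusted p = 0.0829). Counts without 1 animal were 4 without 13-week M2, 11 without 13-week M3, 0 without 13-week M4 and 9 without 7-week M2.

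For 16 of the 20 genes that rose, each unit had a positive well, and the difference could be divided exactly into a detection part and a level part. The detection part was the larger in 16 of 16, with a median of 83.3% of the difference. Genes that did not rise could show this too, with 98.6% for Bcl6 and 91.8% for Stat5, while Socs3 had 42.5%. A large detection part is thus not particular to the genes that rose. These parts depend on the Ct limit of 24, since the detection part grows with the distance of positive wells from the zero it sets. With the zero at Ct 28 in the same wells, a setting chosen after seeing the data, the median was 86.3% and the part was the larger in 16 of 16. At the limit of 24 the detection part was 68.2% for Tnfrsf1b, 88.8% for Cd274, 97.1% for Stat4 and 100.3% for Cxcr3. The level of Cxcr3 in positive wells differed by -0.04 (SE 0.39). For Cd4, which nearly every well detected, the detection part at 24 was 31.9% of a difference of 2.09 (SE 0.87, adjusted p = 0.0895).

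**Figure D3:**
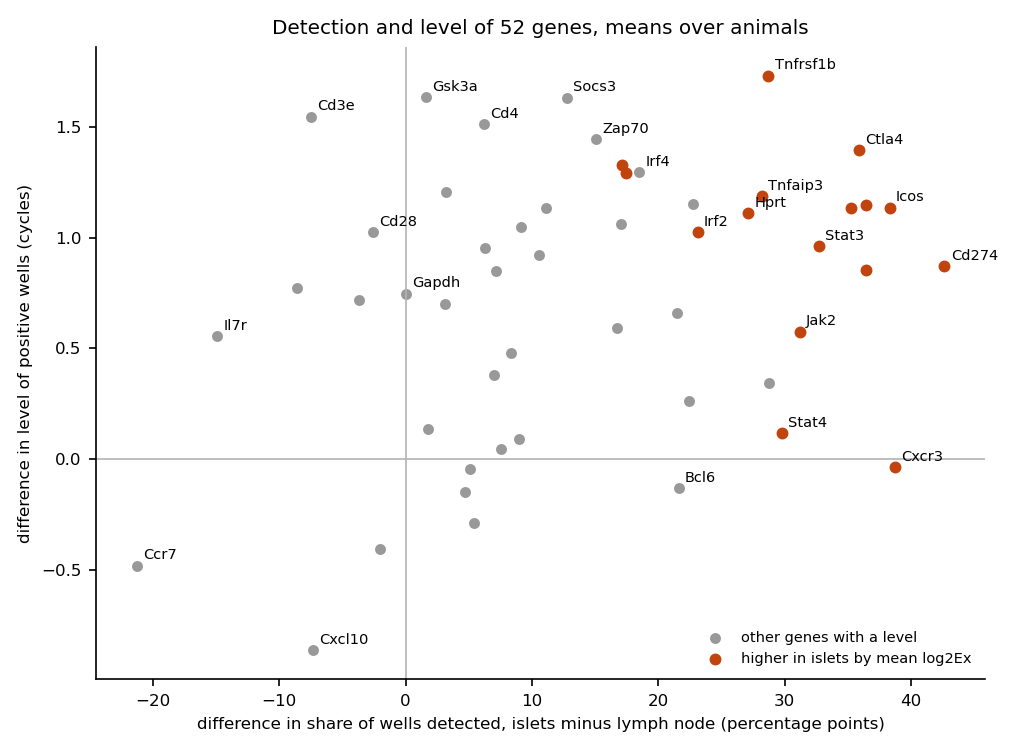
Difference between islets and lymph node in the share of wells that detected a gene (horizontal, percentage points) against the difference in level of the positive wells (vertical, cycles), for 52 genes measured in both tissues of at least 3 animals. Points are means over animals, and coloured points rose by mean log2Ex. Cxcr3 and Stat4 lie far right at levels near 0, whereas Cd3e and Cd4 lie high with little or no difference in share.

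Because the kept islet wells detected 11.3 more assays, wells of the same animal were also paired across tissues on the number detected, within 3 assays. This gave 27 pairs, 3, 5, 11 and 8 in 13-week M2, M3, M4 and 7-week M2, with means of 41.6 assays in islet and 41.1 in lymph node wells. The median difference of the 78 genes was 0.21 in these pairs, 42 lay above 0, 0 passed and 1 had an unadjusted p under 0.05 (limma, n = 4 animals). Of the 20 genes that rose, 16 stayed above 0. Cd274 differed by 2.35 ± 3.77 (SD, n = 4), Tnf by 2.75 ± 2.94, Zeb2 by 2.50 ± 1.89 and Icos by 0.89 ± 2.32, each above 0 in 3 of 4 animals. Pdcd1 was at -0.72 ± 5.72, Irf2 at -0.80 ± 2.15 and Tnfrsf1b at -0.21 ± 2.38. Socs3, Cd4 and Tgfbr2 were above 0 in 4 of 4 animals, at 1.46 ± 1.04, 0.51 ± 0.40 and 1.58, and Cxcl10 and Cd28 were below 0 in 4 of 4. The animals differed widely: Cd274 was at 7.66, 2.19, 0.52 and -0.98, and Pdcd1 at -8.17, 1.85, -1.75 and 5.21, in the same order. Of the 78 genes, 34 turned sign between all kept wells and paired wells. When Gapdh and Hprt were subtracted from each unit, 0 genes passed and the median was -0.34 (14 at an unadjusted p under 0.05).

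**Figure D4:**
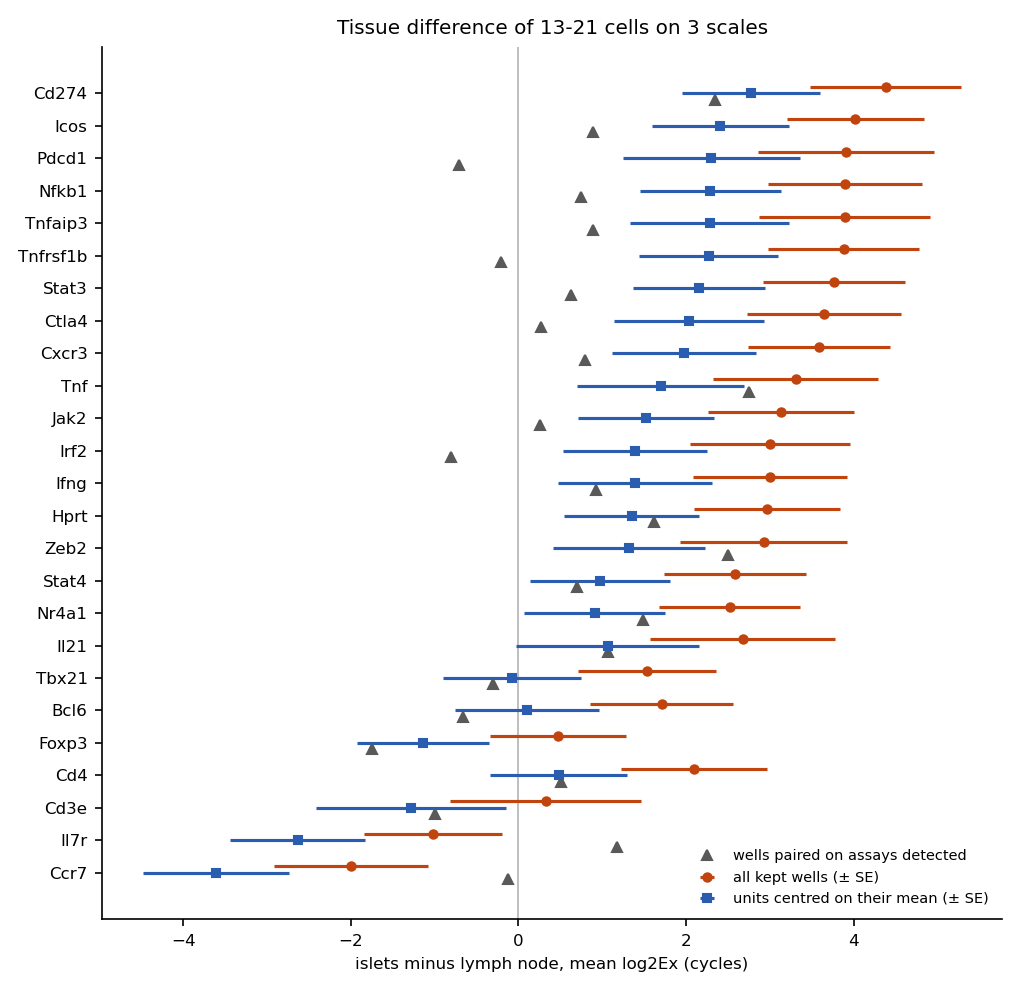
Difference between islets and lymph node in mean log2Ex, in cycles, for 17 of the genes that rose and 8 further genes. Circles are over all kept wells and squares after centring each unit on its mean over genes (both ± SE), and triangles are means over wells paired on the number of assays detected. Centring shifts every gene left by the same 1.61, which is less than the difference of each of the 17 genes. Of their triangles, 3 lie below 0.

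The same 4 animals also gave cells sorted with the tetramer of residues 12-20, kept by the same rule (112 cells), and the tissue difference of the 2 kinds of cells was compared in 1 fit. Of 80 genes tested, 0 differed in their tissue difference (0%; limma, smallest adjusted p = 0.921, 0 at an unadjusted p under 0.05). The 20 genes that rose in 13-21 cells were all above 0 in 12-20 cells as well, but so were 71 of all 80 genes. Kept islet wells of 12-20 cells also detected more assays. Their means were 49.8, 45.9, 47.5 and 42.2 in 13-week M2, M3, M4 and 7-week M2. Those of lymph node were 34.6, 34.5, 38.3 and 33.1. Icos differed by 4.02 in 13-21 cells and by 3.88 ± 1.79 in 12-20 cells (SD, n = 4), an interaction of 0.15 (SE 0.94). Cd274 differed by 4.38 and 4.68 ± 3.77, and Ctla4 by 3.65 and 3.69 ± 3.39. The interactions with the smallest p were Irf4, a factor induced by T cell receptor signals (-2.52, SE 1.18), Tnfrsf1a (-2.41) and Tnfrsf1b (-1.96, SE 1.0), each smaller in 13-21 cells. SEs of the interactions ran from 0.62 to 2.05 cycles, so the test does not show the 2 kinds of cells to be alike.

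**Figure D5:**
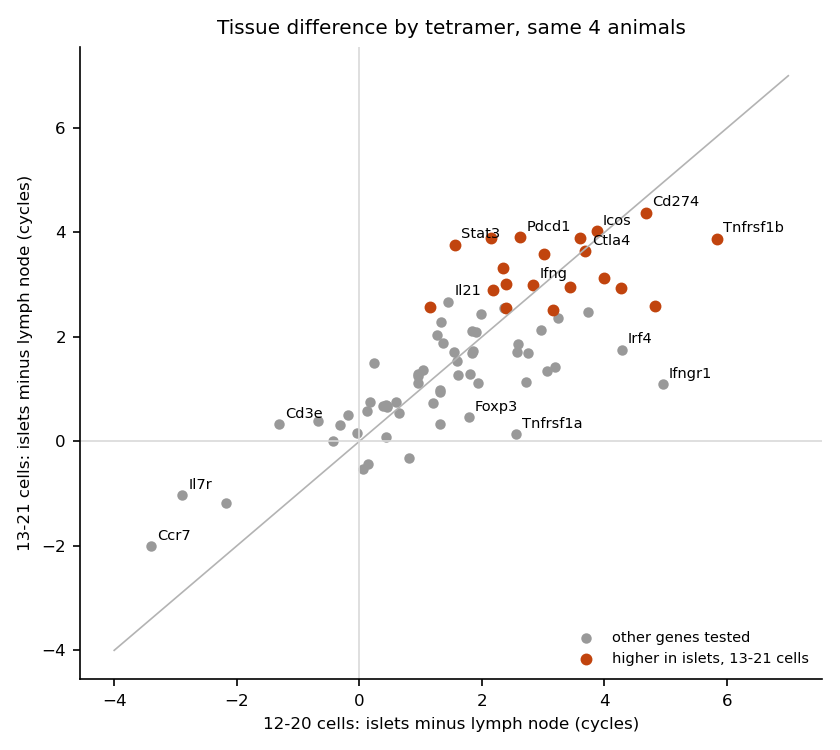
Islets minus lymph node in mean log2Ex, in cycles, of 13-21 cells (vertical) against 12-20 cells (horizontal) of the same 4 animals, for 78 genes. The line marks equal differences, and coloured points rose in 13-21 cells. Icos, Ctla4 and Cd274 lie near the line, and Irf4, Tnfrsf1a and Ifngr1 lie to its right.

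Age could be tested over all wells alone, in 3 animals of 13 weeks and 4 of 7 weeks. Of 75 genes, 0 had a tissue difference that changed with age (0%; limma, smallest adjusted p = 0.667, 3 at an unadjusted p under 0.05: Cd274, Cxcl10 and Irf7). Over all wells Cd274 had a tissue difference larger by 3.14 at 13 weeks (SE 1.13, adjusted p = 0.667). Of the 7-week animals, 3 had no islet well with 20 or more assays, so age and the yield of wells cannot be told apart here. In kept wells, 7-week M2 shared the direction of 19 of the 20 genes, the exception being Tnfaip3. It is 1 of the 4 animals that these calls rest on, so this count is no separate support. Over the 4 animals together 72 of the 78 genes lay above 0. The differences of 7-week M2 were 6.88 for Pdcd1, 5.88 for Tnf and 4.55 for Ifng, beside means of 2.92, 2.46 and 2.49 over the 13-week animals. For Cd274 and Nfkb1 the order was the other way, 2.35 and 1.75 beside 5.06 and 4.61. With 1 animal of 7 weeks these are values with no test.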

How the data were processed

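Single CD4+ T cells were assayed by quantitative PCR on 22 chips of 96 wells and 96 assays. The deposited tables hold other values than counts: Ct, the threshold cycle, with a pass or fail call, exported with software version 4.0.1 and a quality threshold of 0.65, per the file headers. Of 2112 wells 1829 bear the name of a sample; the other 283 were left aside. Of the assays 94 carried a current mouse symbol (RefSeq, GRCm38.p6) after renaming Pd1, Pdl-1, Nur77 and Il-27r, and Stat5 and Il-12rb keep their assay names. For 6 cells the labels contradict each other, and they were left out.

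Detected meant a pass call and Ct under 24. No reference scaling was applied. Genes detected in at least 5% of wells of either tissue were tested with limma 3.58.1 (R 4.3.3) on unit means, with the animal as a fixed block, since both tissues of an animal lay on 1 chip; levels needed 3 positive wells per unit and 3 animals. The animal is as named in the labels. Same-animal units correlated at -0.02, -0.14, 0.35 and 0.46 in their deviations from the tissue means. Well pairs were formed from the closest counts upward, 1 of several possible pairings. Fits were checked on simulated data with planted differences, some of them larger than any seen here. Noise was drawn for each gene alone, so that check could not show the effect of a shift shared by genes. Named genes were those past 0.05 by size, up to 15 a direction, index genes (Bcl6, Ccr7, Cd274, Cd3e, Cd4, Cd44, Ctla4, Cxcr3, Foxp3, Icos, Ifng, Il10, Il2, Il21, Il7r, Pdcd1 and Tbx21), up to 5 by share and by level, 3 by interaction and list members. Some genes that were tested and counted are not reported by name here. The cells, genes and lists were chosen with earlier results of these data known. Assays detected per well stand in for depth. Units were built in Python 3.11.15 (pandas 2.3.3).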

Additional observations from a re-analysis of the deposited data

How the results depend on the processing

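The 20 genes higher in islets became 0 with all wells, 0 with calls ignored (which also changed the wells kept), 0 with the reference assays subtracted and 0 in wells paired on assays detected. They became 1 with no gene filter (88 genes), 5 with 25 or more assays per well, 6 when the 20 assays were counted without those of poor wells, 12 with 10 or more cells per unit, 9 with no replicate block (animals not paired), and 1 lower after centring. More passed in other runs: 17 with Cd4 or Cd3e wells and 15 with a Ct limit of 28, all among the 20. With 12-20 units in the same fit 26 passed, 19 of them among the 20. Leaving out 1 animal gave 0 to 24 genes past the threshold, the 24 being 23 higher and 1 lower. By share the count went from 0 to 3 with 25 or more assays, 3 with Cd4 or Cd3e wells and 12 with no replicate block. By level it went from 0 to 3 with Cd4 or Cd3e wells, 3 with no gene filter and 2 with no replicate block, and 0 to 11 without 1 animal. Chosen after seeing the data, units of 3 or more cells, which add 7-week M3, gave 28 genes higher and 1 lower, 9 by share and 17 by level. Ignoring calls in the kept wells alone, also chosen after seeing the data, gave 15 of the 20 genes and 7 by level. The causes were not tested.

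Among the index genes and those named for their size, signs turned as follows, none past the threshold (34 of all 78 genes turned in paired wells). In paired wells Pdcd1 was -0.72, Irf2 -0.80, Tnfrsf1b -0.21, Bcl6 -0.67, Tbx21 -0.31, Foxp3 -1.74, Cd3e -0.99 and Il7r 1.18. After centring Foxp3 was -1.14, Cd3e -1.29, Cd44 -0.33, Il10 -0.26 and Tbx21 -0.077. With reference assays subtracted Foxp3 was -1.39, Cd3e -1.53, Cd44 -0.58, Il10 -0.51, Tbx21 -0.32 and Bcl6 -0.15. With all wells Foxp3 was -0.075 and Cd3e -0.63, and with calls ignored -0.063 and -0.82. Cd3e was also -0.83 with 25 or more assays, -0.65 without the assays of poor wells and ran from -1.32 without 13-week M3 to 1.60 without 13-week M2. The share of wells with 20 or more assays differed by -15.0 to 5.11 points without 1 animal, above 0 only without 7-week M7. Interactions with tetramer and age kept 0 calls in every alternative run. At 4 animals the exact test could not reach 0.05, and limma's calls rest on 8 to 24 wells per unit.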

Other observations

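One 7-week animal, M3, had both tissues on 1 chip but only 3 islet wells, so it formed no pair; its wells were looked at after the other values had been seen. All 3 islet wells detected 20 or more assays, as did 23 of its 24 lymph node wells. The islet wells detected 50.3 assays on average and the 23 lymph node wells 34.6. The 3 islet wells detected Icos, Pdcd1, Ctla4, Cxcr3, Tnf and Stat3 in 3 of 3. Their mean log2Ex was above that of its lymph node wells for 19 of the 20 genes that rose in the other 4 animals. The same count over all genes is not given here, so the 19 cannot be read as particular to these genes. Pdcd1 stood at 10.4 in the 3 islet wells and 1.0 in the lymph node wells, and Icos at 9.34 and 2.90. Ccr7 was lower in the islet wells by a difference of -3.89. These 3 wells give no spread between animals.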
